A study of Rattus norvegicus with 13 samples.

Results

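The miR-29 family was followed across the fat of 13 female Sprague Dawley rats, through the 5 array entries rno-miR-29a, rno-miR-29a*, rno-miR-29b, rno-miR-29c and rno-miR-29c*, written below without the prefix for rat. The members were taken by name, as the rows listed under these 5 names among the 677 rat miRNAs of the array. No measured value entered this rule, but earlier results of these data were known when it was set. All 5 were among the 176 miRNAs that were tested, which are those detected on at least 6 arrays. The control group holds 7 daughters of fathers that ate standard laboratory chow with 9% as fat, and the HFD group holds 6 daughters of fathers that ate high-fat pellets with 43% as fat. Fathers of both groups were bred at 15 weeks with chow-fed females, and their daughters, weaned onto chow, gave fat when 14 weeks old. The comparison bears on paternal obesity: the labels describe the HFD daughters as glucose intolerant at a body weight and adiposity like those of controls. Each title carries its own animal number. Litters, sires and the fat depot are not named, so p-values measure the spread between these animals, and sisters could not be modelled.

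MicroRNAs are short RNAs cut from hairpin precursors, and they bind messenger RNAs and lower their output. The miR-29 family is best known for holding down collagens and other matrix proteins made by fibroblasts, and for damping insulin signalling when its level is raised in fat, liver or muscle. Of each hairpin, the strand loaded into the silencing complex is the mature miR-29 from the 3′ arm, while the strand from the 5′ arm, written with a star on this array, is mostly discarded.

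The mature sequences are shown because 3 of the members share their targeting region and differ at few other bases, which matters for reading probes as separate. All 5 members matched RefSeq (build GRCr8), where the names end in -3p for miR-29a, miR-29b and miR-29c and in -5p for miR-29a* and miR-29c*. Capitals mark the seed, bases 2 to 8 counted from the 5′ end, which pairs with targets.
miR-29a: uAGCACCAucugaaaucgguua
miR-29b: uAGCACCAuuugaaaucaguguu
miR-29c: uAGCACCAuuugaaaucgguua
miR-29a*: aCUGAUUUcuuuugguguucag
miR-29c*: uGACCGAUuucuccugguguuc

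The seed AGCACCA was carried by 3 of 693 mature rat miRNAs in the RefSeq table (0.433%), and these were miR-29a, miR-29b and miR-29c themselves. The seeds of miR-29a* (CUGAUUU) and miR-29c* (GACCGAU) were each carried by 1 of the 693. Counted from the 5′ end, miR-29a and miR-29c differed at 1 of 22 bases, C10U. Between miR-29a and miR-29b the differences over the first 22 bases were C10U, G18A, U21G and A22U, and miR-29b is 23 bases long. Between miR-29c and miR-29b they were G18A, U21G and A22U. Probes to RNAs this alike can take up signal from a relative, and how much they did so was not tested, because the array files used here hold no probe sequences.

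The family is encoded in 2 pairs of hairpins. The hairpins Mir29a (chr4:60617955-60618042, minus strand) and Mir29b1 (chr4:60618334-60618414, minus strand) lie 291 bases apart. Mir29b2 (chr13:109098831-109098911, plus strand) and Mir29c (chr13:109099359-109099446, plus strand) lie 447 bases apart. Mature miR-29b can come from either pair, so its level on the array does not name its source. The hairpins of which both strands are members are shown with both arms in capitals, the star strand first and the mature strand second.
Mir29a: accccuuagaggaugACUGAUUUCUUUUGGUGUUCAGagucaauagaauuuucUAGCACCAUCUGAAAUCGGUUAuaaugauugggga
Mir29c: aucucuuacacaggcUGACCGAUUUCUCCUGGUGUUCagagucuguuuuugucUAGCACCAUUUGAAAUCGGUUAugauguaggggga

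Each array detected between 154 and 196 miRNAs, with 0 saturated spots. Of the muscle markers miR-1, miR-133a, miR-133b, miR-206 and miR-499, 3 of 5 were tested, and miR-1 reached log2 levels of 2.50 on control 662, 1.94 on control 664 and 2.74 on HFD 629. Fat depots can carry muscle, and fewer cells of a type and less RNA per cell cannot be told apart in such bulk samples. The fixed lists hold no miRNA restricted to fat cells, so the tissue label was not checked by a marker of its own. The arrays came from 2 slides, slide 1 with 4 control and 4 HFD arrays and slide 2 with 3 and 2.

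The strands of the family were measured with very different certainty. Each member had 20 spots per array. The mature strands miR-29a, miR-29b and miR-29c had 2 probes of 10 spots each, and both probes were well above background on all 13 arrays. Their median coefficient of variation between spots lay between 2.68% and 3.76%. The 2 probes of a miRNA varied together over arrays, with a Pearson r of 0.952 for miR-29a, 0.975 for miR-29b and 0.990 for miR-29c, as a description.

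The star strands lay close to the detection limit. For miR-29a*, 1 of 4 probes was well above background on all 13 arrays, a second only on control 658, and the other two on none. The bright probe of miR-29a* had a signal from 39.9 (control 627) to 92.1 (control 658) intensity units over a local background with a median of 61 units. Its other 3 probes were at the floor on all 13 arrays, the floor being the lowest level that was kept, at log2 -5.67. For miR-29c*, the dimmer probe was detected on 8 arrays and the brighter one on all 13, at 41.6 to 96.4 units. The coefficient of variation between spots was 11.2% for the bright probe of miR-29a* and 10.3% for that of miR-29c*. The opposite strands of the miR-29b hairpins, miR-29b-1* and miR-29b-2*, were detected on 0 of 13 arrays by any of their 4 probes each. They are not members, and at this sensitivity no level can be given for them.

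**Figure D1:**
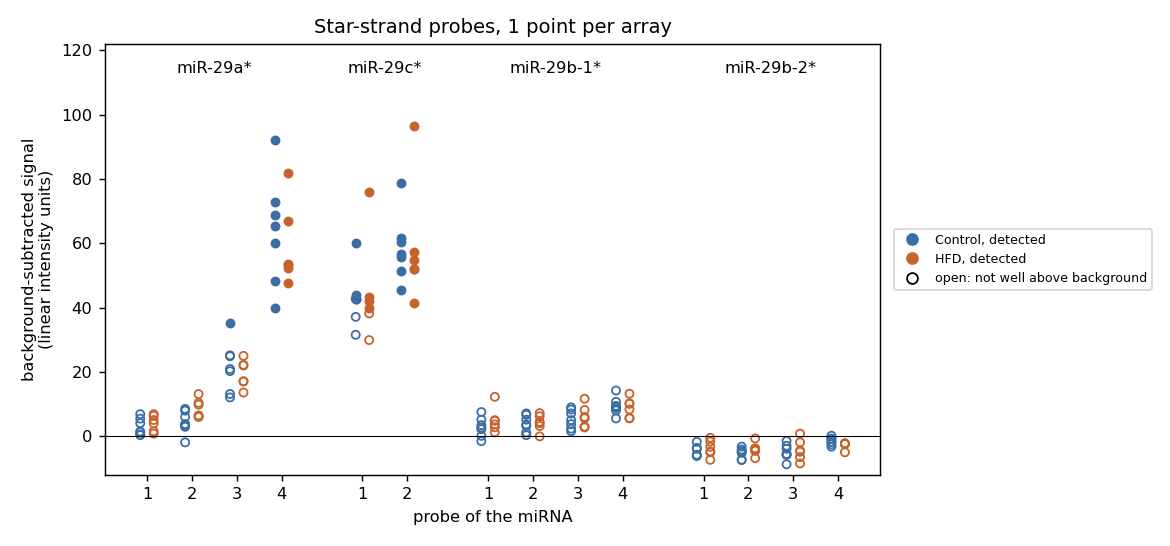
Background-subtracted signal (vertical axis, linear intensity units) of each probe (horizontal axis, probes numbered within a miRNA) for the star strands, 1 point per array, blue for control and orange for HFD, filled where at least 0.5 of the spots were well above background. Only 1 probe of miR-29a* and 1 of miR-29c* are filled on all 13 arrays, and all points of miR-29b-1* and miR-29b-2* are open.

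Levels below are on a log2 scale, as the signal of a probe over the 75th percentile of those 260 probes of the same array that every array detected, averaged over the probes of a miRNA. They compare arrays for 1 miRNA and do not rank miRNAs, since probes differ in brightness.

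For miR-29a, the member most often linked to insulin resistance, the control arrays stood at 1.11 (lowest), 1.24 (median) and 1.497 (highest), and the HFD arrays at 0.96, 1.26 and 1.28. The groups overlapped, with 4 HFD arrays close together from 1.24 to 1.28 and the lowest level of all on HFD 663. Means were 1.29 ± 0.14 (SD, n = 7) in control and 1.19 ± 0.13 (SD, n = 6) in HFD. All 6 HFD arrays lay below the control mean, as did control 656 (1.24), control 662 (1.24), control 631 (1.16) and control 664 (1.11). The median, in contrast to the mean, was slightly higher in HFD than in control. The difference was -0.097 ± 0.075 (SE) on the log2 scale, or 0.935-fold with a 95% interval from 0.836-fold to 1.05-fold. It did not pass the test (limma, unadjusted p = 0.219, adjusted p = 0.965 over all 176 miRNAs). Without HFD 663 it was -0.049.

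miR-29b, which has the same seed and is made from both chromosomes, stood at 0.54, 0.80 and 1.22 in control and at 0.49, 0.69 and 1.04 in HFD as lowest, median and highest. The groups overlapped over most of their range, and the highest array was control 658, well above the next control array at 0.83. Means were 0.81 ± 0.20 (SD, n = 7) and 0.75 ± 0.20 (SD, n = 6). The difference of -0.069 ± 0.11 (SE), 0.954-fold with a 95% interval from 0.812-fold to 1.12-fold, did not pass (limma, adjusted p = 0.980). Without control 658 it was -0.0011.

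miR-29c, the partner of miR-29b-2, ran from 0.39 over a median of 0.50 to 0.60 in control and from 0.24 over 0.53 to 0.63 in HFD. The HFD arrays held both the highest level (HFD 629) and the lowest (HFD 663), so their spread enclosed that of the controls. Means were 0.51 ± 0.079 (SD, n = 7) and 0.48 ± 0.15 (SD, n = 6). The log2 difference was -0.028 ± 0.066 (SE), 0.981-fold with a 95% interval from 0.888-fold to 1.08-fold (limma, adjusted p = 0.983). It turned to 0.020 without HFD 663.

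Neither star strand passed the test. miR-29a* stood at -5.57 to -5.36 in control and at -5.56 to -5.49 in HFD, a log2 difference of -0.027 ± 0.038 (SE) (limma, adjusted p = 0.977). This narrow interval, from 0.927-fold to 1.04-fold, is of a mean that includes the 3 probes held at the floor. The 1 probe measured on all arrays gave levels of -5.28 (control 627) to -4.45 (control 658) in control and -5.26 to -4.96 in HFD, again overlapping. Its difference was -0.11 ± 0.12 (SE), with a log2 interval from -0.37 to 0.15 (limma on the brightest probe of each miRNA, adjusted p = 0.958). miR-29c* ran from -5.41 over -5.36 to -4.96 in control and from -5.49 over -5.37 to -4.89 in HFD. Its difference was 0.00047 ± 0.10 (SE), 0.859-fold to 1.16-fold (limma, adjusted p = 0.999). The 2 probes of miR-29c* differed in sign, at 0.043 ± 0.11 (SE) and -0.042 ± 0.11 (SE).

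**Figure D2:**
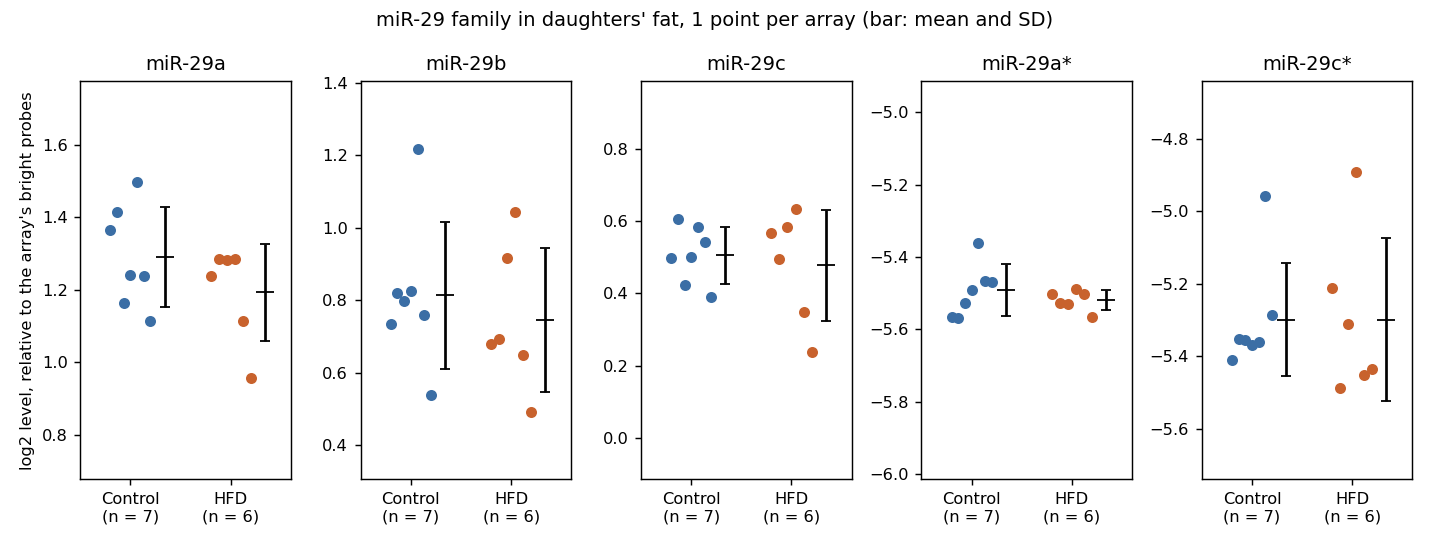
Log2 level (vertical axis, scaled to the 75th percentile of the array) of each member by group, 1 point per array, in panels of equal height, with the group mean and SD as a black bar beside the points (n = 7 control, n = 6 HFD). The groups overlap in every panel; control 658 is the highest point for miR-29a, miR-29b and miR-29a*.

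Over the family, 0 of 5 members passed the test, 1 was higher and 4 were lower, with a median log2 difference of -0.028. Over all 176 tested miRNAs 0 passed (0%), 2 had an unadjusted p under 0.05 (1.14%, none of them a member), 51.7% were higher and 48.3% lower, and the median difference was 0.0028. The level ranges of the groups overlapped for every member, as for all 176 miRNAs. Under this scaling, the 95% intervals of miR-29a, miR-29b and miR-29c lay between 0.812-fold and 1.12-fold. A change of the size of 1.5-fold in either direction lies outside them. They take the daughters as independent, and since litters and sires are not named, they may be too narrow. miR-29a was lower under each of the 34 other settings, including every array left out and both slides, with values between -0.24 and -0.021. These settings reuse all or part of the same arrays, so they are not independent of each other. Changing the floor or the detection filter could not alter the value of miR-29a, which stayed at -0.097. The difference of miR-29c*, close to 0, turned its sign under 18 of 33 settings.

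**Figure D3:**
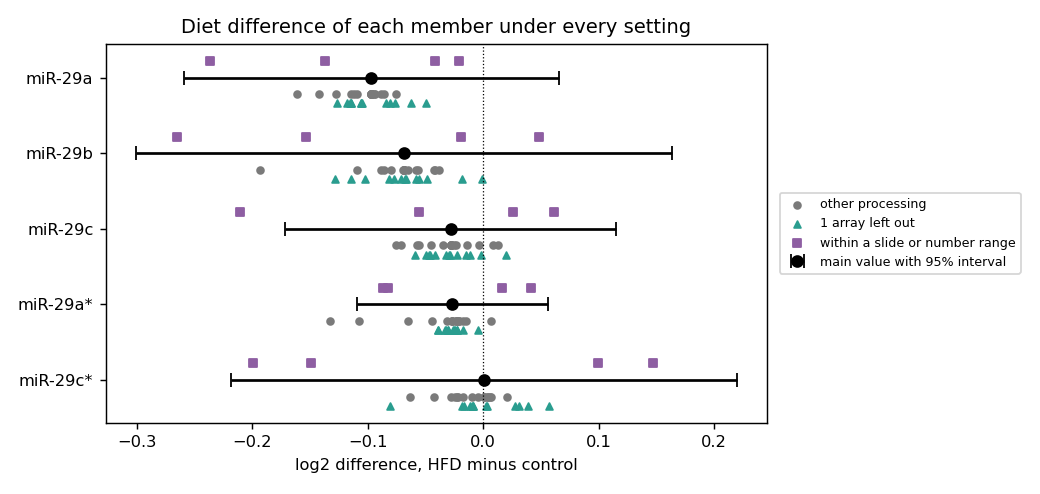
Log2 difference, HFD minus control (horizontal axis), of each member: the main value with its 95% interval (black), other processing (grey), 1 array left out (green) and fits within a slide or a range of animal numbers (purple). Each interval includes 0, and the points of miR-29a are all below 0, while those of every other member reach both sides of 0.

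Within the slides the members did not keep 1 pattern. On slide 1 the differences were -0.14 for miR-29a, -0.019 for miR-29b, -0.055 for miR-29c, 0.016 for miR-29a* and 0.0997 for miR-29c*. On slide 2 they were -0.021, -0.15, 0.026, -0.083 and -0.15 in the same order. The difference between slides was not significant for any member (limma interaction, adjusted p from 0.463 for miR-29a* to 0.773 for miR-29b and miR-29c).

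The seed-sharing strands varied together from animal to animal. Across 13 arrays miR-29a and miR-29c, which come from different chromosomes, had a Pearson r of 0.842 (permutation p = 0.00032, adjusted p = 0.0032 over the 10 pairs of members) and a Spearman rho of 0.786 (permutation p = 0.00224, adjusted p = 0.0112). Within control the r was 0.867 (exact permutation p = 0.0147, n = 7) and within HFD 0.940 (exact permutation p = 0.0125, n = 6). On slides 1 and 2 it was 0.893 and 0.749. Without control 658 and HFD 663, the arrays farthest from the median of miR-29a, it was 0.765 (permutation p = 0.00653, n = 11). Without HFD 663 alone it was 0.733 (permutation adjusted p = 0.0513), just above the threshold, so the call after adjustment needs that array. These are the members that differ at 1 base, and the part of shared probe signal in the correlation was not tested.

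miR-29b and miR-29c, neighbours on chromosome 13 for 1 of the 2 miR-29b hairpins, had an r of 0.743 (permutation p = 0.00398, adjusted p = 0.0133) and a rho of 0.813 (permutation p = 0.00123, adjusted p = 0.0112). It was 0.659 in control (exact permutation p = 0.103, n = 7) and 0.856 in HFD (exact permutation p = 0.0361, n = 6), and 0.917 and 0.701 on the slides. Without control 658 and HFD 629 it was 0.776 (permutation p = 0.00493, n = 11), and without HFD 663 alone 0.670 (permutation adjusted p = 0.0534).

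miR-29a and miR-29b, neighbours on chromosome 4, had an r of 0.773 (permutation p = 0.00218, adjusted p = 0.0109) and a rho of 0.736 (permutation p = 0.00542, adjusted p = 0.0181). The r was 0.773 in control (exact permutation p = 0.0246, n = 7), 0.769 in HFD (exact permutation p = 0.0542, n = 6), and 0.680 and 0.965 on the slides. Without HFD 663 and control 658 it was 0.484 (permutation p = 0.132, n = 11), so as far as r goes this relation rests on those 2 arrays, whose removal also narrows the range of miR-29a. Without control 658 alone it was 0.659 (permutation adjusted p = 0.0703), and without HFD 663 alone 0.708 (permutation adjusted p = 0.0513). As a background, the median r over the 10585 pairs among the 146 tested miRNAs never at the floor was 0.040, and 90% of pairs had an r under 0.567.

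**Figure D4:**
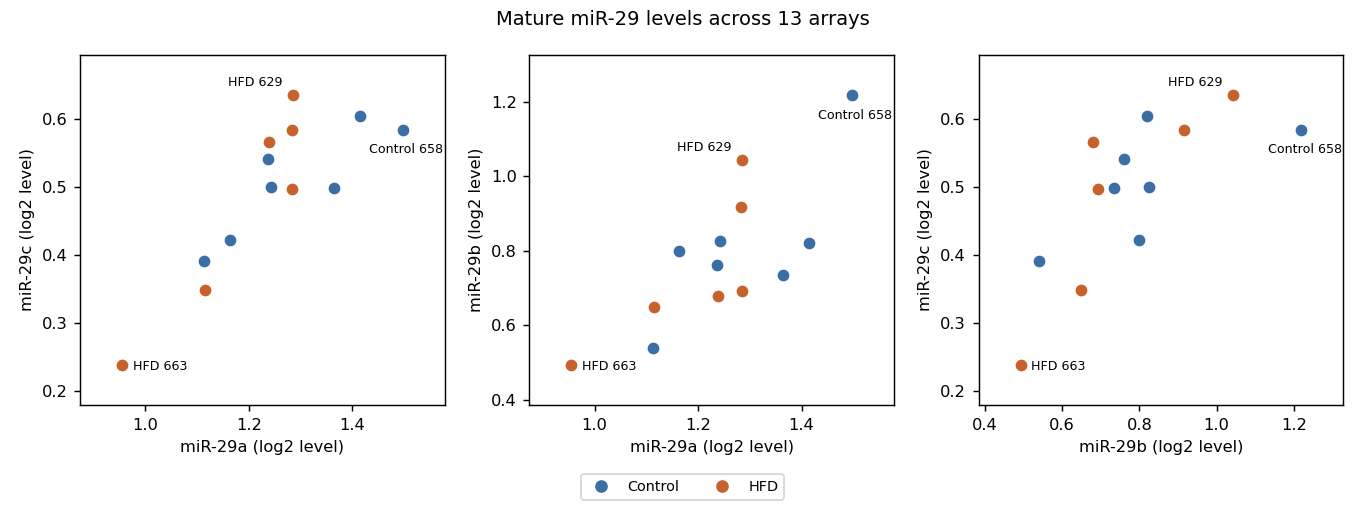
Log2 levels of miR-29a, miR-29b and miR-29c plotted against each other, 1 point per array, blue for control and orange for HFD. HFD 663 is the lowest point in each panel, and control 658 lies at the upper right of the miR-29a and miR-29b panel, the pair whose r goes from 0.773 to 0.484 without those 2 arrays.

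Each star strand was also set against the mature strand of its hairpin. miR-29a and miR-29a*, cut from the same hairpin, had an r of 0.333 (permutation p = 0.261, adjusted p = 0.403) and a rho of -0.088 (permutation p = 0.778, adjusted p = 0.864). Without HFD 663 and control 658 the sign of r turned, to -0.69 (permutation p = 0.0193, not adjusted, n = 11). miR-29c and miR-29c* had an r of 0.502 (permutation p = 0.0733, adjusted p = 0.147), a rho of 0.593 (permutation p = 0.0364, adjusted p = 0.0909) and an r of 0.411 without HFD 663 and HFD 660. Over all 13 arrays neither pair passed after adjustment, and both star strands were near the floor.

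The mature strands differed in their spread over animals. From the lowest to the highest of 13 arrays miR-29a spanned 1.46-fold, miR-29b 1.65-fold and miR-29c 1.32-fold. Their SDs over arrays were 0.14, 0.20 and 0.11, against a median of 0.16 over the 146 miRNAs never at the floor, so that miR-29b lay above that median and miR-29a and miR-29c below it. Of those 146, 41.8% had a smaller SD than miR-29a, 69.2% than miR-29b and 24.0% than miR-29c.

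The same few arrays set the extremes of several members. HFD 663 was lowest for miR-29a (0.96), miR-29b (0.49) and miR-29c (0.24), and HFD 660 and control 664 held the next places from the bottom in all 3. HFD 663 also had the most detected miRNAs, 196, and the highest mean level of red blood cell markers (-0.66, against -2.55 to -1.02 on all arrays but HFD 629 at -0.72). The red blood cell list had 3 tested members, miR-144, miR-144* and miR-451, of 4 fixed, and its mean ran from -2.55 to -1.10 in control and from -1.88 to -0.66 in HFD. Its correlation with miR-29a was -0.45 (permutation p = 0.125, adjusted p = 0.503 over 40 relations, rho -0.46) and -0.32 without HFD 663 and HFD 629. With miR-29b it was -0.074 (rho -0.34) and with miR-29c -0.35 (rho -0.27). HFD 629, with the next highest mean of this list, was highest for miR-29c (0.63) and stood at 1.04 for miR-29b. The part of red blood cells in the low levels of HFD 663 was not tested.

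Control 658 was highest for miR-29a (1.497), miR-29b (1.22) and miR-29a* (-5.36), while for miR-29c (0.58) it lay below HFD 629 and control 627. It also stood apart for the markers of fibroblasts and mesenchymal cells, the cells in which miR-29 restrains collagen. All 5 markers of that list were tested (miR-199a-3p, miR-199a-5p, miR-214, miR-143 and miR-145), and their mean was 0.40 on control 658, while the other 12 arrays lay from -1.30 to -0.88. The range was -1.19 to 0.40 in control and -1.30 to -1.08 in HFD. All 5 markers were lower in HFD, as were 48.3% of all 176 miRNAs. Of the 5, 0 passed the test, and their median log2 difference was -0.35. The SD of each was larger in control than in HFD, at 0.90 against 0.057 for miR-143. The part of control 658 in these differences was not tested. The correlation of this list with miR-29b was 0.604 (permutation p = 0.0595, adjusted p = 0.352, rho 0.082) and -0.056 without control 658 and HFD 624. With miR-29a* it was 0.817 (permutation p = 0.00899, adjusted p = 0.246, rho 0.55) and 0.381 without the same arrays. It was 0.50 with miR-29a, 0.19 with miR-29c and -0.105 with miR-29c*. The epithelium list, with 2 of 7 markers tested, had an r of -0.656 with miR-29a* (permutation adjusted p = 0.246) and -0.628 with miR-29b (0.274). None of the 40 relations between members and lists passed. The part of fibroblasts and mesenchymal cells in the level of control 658 was not tested.

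miR-29c* was highest on 2 of the 3 arrays rich in muscle miRNAs, at -4.89 on HFD 629 and -4.96 on control 662, while control 664, also rich in them, had -5.29. The other 10 arrays lay between -5.49 and -5.21. The mean of the 3 tested muscle markers (miR-1, miR-133b and miR-499) was 0.50 on HFD 629, 0.46 on control 662 and -0.13 on control 664, against -5.06 to -2.30 on the other 10, and it ran from -4.93 to 0.46 in control and from -5.06 to 0.50 in HFD. Over those 10 arrays its correlation with miR-29c* was 0.675 (permutation p = 0.0374, adjusted p = 0.352, rho 0.455) and 0.206 without HFD 619 and control 658. The mature strands showed no such step, with miR-29c at 0.39 to 0.63 on the 3 arrays and at 0.24 to 0.60 on the others. The other star strand, miR-29a*, stood at -5.488 to -5.467 on the 3 arrays and at -5.568 to -5.36 on the other 10. Of those 10, only control 658 lay above the 3, and control 656 came next below them at -5.49. Without the 3 arrays the diet difference was -0.16 for miR-29a, -0.19 for miR-29b, -0.075 for miR-29c, -0.023 for miR-29a* and -0.010 for miR-29c* (limma, adjusted p from 0.659 to 0.952), so the values of miR-29a, miR-29b and miR-29c lay further below 0 than over all arrays and still did not pass.

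**Figure D5:**
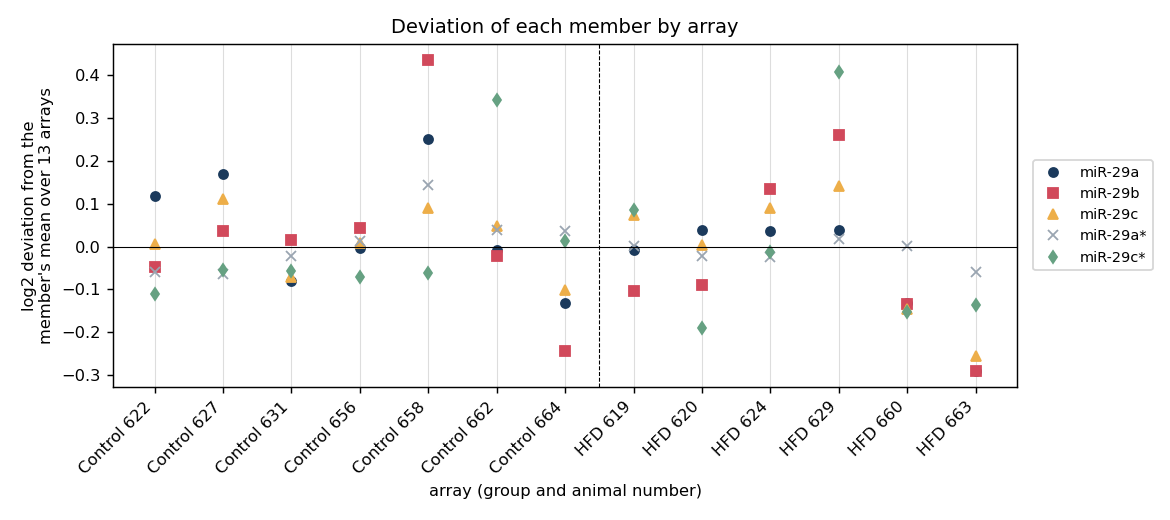
Log2 deviation of each member from its own mean over 13 arrays (vertical axis) by array (horizontal axis, group and animal number; the dashed line separates control from HFD). The mature strands sit together on most arrays and are lowest on HFD 663, control 658 stands out for miR-29b, and control 662 and HFD 629 stand out for miR-29c*.

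Outside the family, the miRNAs most like the members were picked by the highest Pearson r over 13 arrays among 141 miRNAs never at the floor, and they are a description since none passed after adjustment. For miR-29a they were miR-26b (0.717), miR-26a (0.621), miR-652* (0.585) and miR-30c (0.556). For miR-29c they were the same 4, at 0.729, 0.722, 0.690 and 0.699. The relation of miR-29c to miR-30c was the most stable of these, with a rho of 0.797 and an r of 0.805 without HFD 663 and HFD 660. For miR-29b they were miR-143 (0.711), miR-145 (0.691), miR-23b (0.675) and miR-27b (0.650). Without control 658 and HFD 629 these r values were 0.428, 0.438, 0.187 and 0.066. All 4 fell, most for miR-23b and miR-27b, and leaving out those 2 arrays also narrows the range of miR-29b. miR-143 and miR-145 are also on the list of fibroblast markers, which control 658 led. The lowest adjusted permutation p was 0.517 for miR-29a, 0.331 for miR-29b and 0.286 for miR-29c.

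Other miRNAs known from the processes in which miR-29 acts were taken from 2 lists. Of 12 listed miRNAs of fibrosis and collagen, 10 were tested, 3 were higher and 7 lower, 0 passed, and the median log2 difference was -0.077. The list shares miR-145, miR-199a-5p and miR-214 with the fibroblast markers. The differences of these 3 were -0.38 ± 0.20 (SE) for miR-199a-5p, -0.37 ± 0.12 (SE) for miR-214 and -0.28 ± 0.37 (SE) for miR-145, and that of miR-133b, also a muscle marker, was -0.54 ± 1.67 (SE), all further from 0 than any member. For miR-145 and miR-133b the difference was smaller than its SE. The 3 higher miRNAs of this list were miR-378 at 0.16 ± 0.11 (SE), miR-192 at 0.097 ± 0.11 (SE) and miR-30a at 0.022 ± 0.091 (SE). Of these, miR-378 also lay further from 0 than any member, in the opposite direction, and miR-192 lay about as far from 0 as miR-29a. miR-214 had the lowest p of all 176 miRNAs (limma, unadjusted p = 0.00871, adjusted p = 0.965) and did not pass. In the same list miR-21, a fibrosis-promoting miRNA, differed by -0.12 ± 0.12 (SE), also further from 0 than any member. There miR-30c, which restrains connective tissue growth factor, differed by -0.0013 ± 0.072 (SE). Of 14 listed miRNAs of insulin signalling and diabetes, 11 were tested, 8 were higher and 3 lower, 0 passed, and the median was 0.012. There miR-103 and miR-107, which lower insulin sensitivity in fat through caveolin, differed by 0.082 ± 0.12 (SE) and 0.034 ± 0.089 (SE). The 3 lower miRNAs were miR-143 at -0.35 ± 0.34 (SE), miR-223 at -0.11 ± 0.12 (SE) and let-7a at -0.0090 ± 0.071 (SE). Of the 11 tested, miR-143 lay furthest from 0.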

How the data were processed

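Per the labels, total RNA was labelled with Cy3 and hybridised to 1-colour Agilent rat miRNA arrays. Per the file headers, the authors read them with Feature Extraction 10.7.3.1, and the grid names build rn4. The deposited spot values are linear intensity with background removed and no scaling between arrays. The deposited value table holds log2 of the total gene signal, blank where not detected and unscaled, as found by setting it against the array files (26 of 2569 values were off by more than 2e-04), and it served as an alternative. RMA and Partek also appear, with no role given, per the submitters' processing notes.

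Spots with no outlier flag were averaged per probe. Each probe was scaled to the 75th percentile of the 260 probes that every array detected, floored at 0.0197 and taken to log2, and probes of a miRNA were averaged. A probe was detected where at least 0.5 of its spots were well above background. The diet test was limma 3.58.1, run in R 4.3.3 (two-sided, Benjamini-Hochberg over 176 miRNAs, threshold 0.05), tested on simulated data. Permutation tests were two-sided, with 100000 resamples, or exact below 10 arrays. Alternatives changed scaling, background (normexp with an offset of 50 on median signals), summary, floor, filter, batch and arrays. The members and lists were chosen with earlier results of these data known. Named beyond the members are the 4 most correlated miRNAs of each mature strand and list members on which a result turns. miR-21, miR-30c, miR-103, miR-107, miR-133b, miR-145, miR-199a-5p and miR-214 were picked as examples after their values were seen. In the lists of fibrosis and of insulin signalling, every tested miRNA on the less frequent side is named as well. The number of arrays limits the precision.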

Additional observations from a re-analysis of the deposited data

Results flagged for a closer look

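Of 10 groups of a member checked for an array far from the others (Dixon's gap over range, for which chance gives about 1 in 20 groups), 2 stood out, both in control. For miR-29b, control 658 at 1.22 lay above the next control array at 0.83, a gap of 0.579 of the range, just above the critical value for 7 arrays. For miR-29c*, control 662 at -4.96 lay above the next at -5.29, a gap of 0.726 of the range.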

How the results depend on the processing

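The count of miRNAs past the test was 0 under each of the 34 other settings, with 1 to 17 miRNAs at an unadjusted p under 0.05. miR-29a kept its direction under all 34 (adjusted p from 0.450 to 1). The settings reuse all or part of the same arrays, and those that change the floor or the detection filter leave the value of miR-29a unchanged. The other members' directions turned as follows, and the cause was not tested. miR-29a* was 0.0067 with arrayWeights, 0.016 within slide 1 and 0.041 in the lower range of animal numbers. miR-29b was 0.049 in the lower range. miR-29c was 0.0086 with quantile normalization, 0.013 with RMA-like processing, 0.026 within slide 2 and 0.062 in the lower range. miR-29c* was -0.022 with the percentile over all probes, -0.023 with quantile normalization, -0.028 with normexp, -0.063 with the total gene signal, -0.018 with the lower floor, -0.042 with the brightest probe, -0.025 with arrayWeights, -0.15 within slide 2, -0.0048 with the number range as a block, -0.20 in the upper range and -0.010 without the muscle-rich arrays. Leaving out 1 array gave -0.13 to -0.049 for miR-29a, -0.039 to -0.0049 for miR-29a*, -0.13 to -0.0011 for miR-29b, -0.060 to 0.020 for miR-29c and -0.081 to 0.057 for miR-29c*, the last turning with 7 of 13 arrays.

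The members higher in HFD, 1 of 5, were 2 with RMA-like processing and within slide 1, 4 in the lower range, 0 in the upper range, and 0 with the percentile over all probes, normexp, the total gene signal, either floor, the brightest probe, the number range as a block and without the muscle-rich arrays. Leaving out 1 array gave 0 to 2. With the floor 4 times higher, miR-29a* and miR-29c* were at the floor on all arrays and gave no value. Over all 176 miRNAs 51.7% were higher, 40.3% with the total gene signal and 64.2% with the unscaled deposited table. This share was 56.82% with RMA-like processing, 46.02% within slide 1, 61.36% in the lower range and 40.91% in the upper range. It was 45.45% with the percentile over all probes, 46.02% with normexp, 52.84% with the lower floor and 50% with the brightest probe. With the number range as a block it was 48.3%, and without the muscle-rich arrays 57.95%. It was 32.95% with the floor 4 times higher, where the median difference was 0.

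The r of miR-29a and miR-29b was 0.547 with quantile normalization (adjusted p = 0.128, permutation) and 0.577 with RMA-like processing (0.127), both no longer past the threshold, and 0.659 to 0.821 with 1 array left out, lost without control 658 and HFD 663. That of miR-29b and miR-29c was 0.687 without the muscle-rich arrays (adjusted p = 0.0809, permutation) and 0.670 to 0.808 with 1 array left out, and that of miR-29a and miR-29c 0.733 to 0.877, each lost without HFD 663. miR-29a and miR-29a* had an r of -0.063 with RMA-like processing, 0.775 with the deposited table and -0.17 to 0.522 with 1 array left out, and miR-29c and miR-29c* 0.917 with the deposited table and 0.366 to 0.554. That table carries each array's overall brightness. No paired analysis was possible because the groups share no animal number. Signal close to background limits the star strands.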

Other observations

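The animal numbers fall into a lower range (619 to 631, 3 control and 4 HFD arrays) and an upper range (656 to 664, 4 control and 2 HFD arrays), and what the numbers stand for is not stated. In the lower range the diet differences were -0.042 for miR-29a, 0.049 for miR-29b, 0.062 for miR-29c, 0.041 for miR-29a* and 0.15 for miR-29c*. In the upper range they were -0.24, -0.27, -0.21, -0.087 and -0.20 in the same order, and its 2 HFD arrays are HFD 660 and HFD 663, the lowest HFD arrays of miR-29a, miR-29b and miR-29c. The difference between ranges was -0.27 for miR-29c (limma interaction, unadjusted p = 0.0175, adjusted p = 0.384) and did not pass for any member. Over all 176 miRNAs the median diet difference was 0.034 in the lower range and -0.028 in the upper range. The share higher in HFD was 61.36% and 40.91%.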
